A study of Rattus norvegicus with 10 samples.

Results

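The genes described here are 7 enzymes of serine synthesis and folate-bound carbon metabolism, Phgdh, Psat1, Psph, Shmt1, Shmt2, Mthfd1 and Mthfd2, in rat mammary gland. They were taken by gene symbol from the platform annotation, and each had 1 probe set, so 7 of the 10411 named genes and 7 of the 15866 probe sets are at issue. The genes were selected on earlier results of these same arrays, in which Phgdh and Psat1 had higher signals on GEN than on CAS. Differences between diets are therefore given as a description, with no p-value for single members.

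RNA was measured on 10 Affymetrix RAE230 arrays of female Sprague-Dawley rats, taken at postnatal day 50; the animals had been fed SPI, GEN or CAS, which are 3 purified diets. There were 4 SPI arrays (replicates 2, 3, 4 and 5), 3 GEN arrays (replicates 1, 3 and 5) and 3 CAS arrays (replicates 1, 2 and 3). The RNA is described as from the fourth mammary gland and its source as epithelial cells, while the design text also mentions colon. The title of the series gives the question, how SPI or genistein in the diet changes gene expression of mammary epithelium. GEN is taken as genistein, an isoflavone of soy and a ligand of the estrogen receptors; from knowledge of the study, SPI is soy protein isolate and CAS is casein. Each array carried RNA pooled from 2 animals, and the labels describe 3 replicate targets made from each pool without saying which arrays came from the same pool. The arrays of a diet may therefore share a pool, n counts arrays and not animals, and every SD, SE and p below measures the spread between arrays, which may be technical. Values are MAS5 signals, brightness on a linear scale with each array scaled as a whole.

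Phgdh oxidises the glycolytic intermediate 3-phosphoglycerate, Psat1 transaminates the product and Psph removes the phosphate to give serine. Shmt1 in the cytosol and Shmt2 in the mitochondrion turn serine into glycine and pass a carbon unit to tetrahydrofolate. Mthfd1 in the cytosol and Mthfd2 in the mitochondrion convert the folate-bound carbon units that purine and thymidylate synthesis use. Secretory mammary epithelium uses amino acids for milk proteins, and PHGDH is amplified or highly expressed in some human breast tumours.

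The promoter sequences of Phgdh, Psat1 and Shmt1 are shown because these had the highest GEN minus CAS differences of the 7 genes. They are from RefSeq on build GRCr8, from 250 bases before to 50 bases after the start that the sequence table uses, 5′ to 3′ on the strand of the gene. For Phgdh and Shmt1 that start is the end of the annotated gene span; for Psat1 it lies 779 bases inside the span, so its window is within the gene as annotated. Capitals mark matches on either strand to the E-box CACGTG, the CCAAT box CCAAT and the GC box GGGCGG. Phgdh lies at chr2:188624740-188625039, Psat1 at chr1:222645359-222645658 and Shmt1 at chr10:45990292-45990591, each on the minus strand.
Phgdh: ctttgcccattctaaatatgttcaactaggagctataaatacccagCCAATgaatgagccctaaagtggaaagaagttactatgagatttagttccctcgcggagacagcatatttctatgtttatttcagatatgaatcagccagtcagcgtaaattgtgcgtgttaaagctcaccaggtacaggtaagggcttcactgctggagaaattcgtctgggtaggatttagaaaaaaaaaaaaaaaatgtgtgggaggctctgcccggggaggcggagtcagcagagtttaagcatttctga
Psat1: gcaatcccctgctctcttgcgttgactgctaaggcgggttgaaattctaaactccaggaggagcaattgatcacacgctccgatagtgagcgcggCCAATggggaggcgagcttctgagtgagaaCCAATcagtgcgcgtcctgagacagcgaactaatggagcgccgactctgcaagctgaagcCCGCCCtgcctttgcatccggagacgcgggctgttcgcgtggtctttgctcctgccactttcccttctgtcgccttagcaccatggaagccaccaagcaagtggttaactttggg
Shmt1: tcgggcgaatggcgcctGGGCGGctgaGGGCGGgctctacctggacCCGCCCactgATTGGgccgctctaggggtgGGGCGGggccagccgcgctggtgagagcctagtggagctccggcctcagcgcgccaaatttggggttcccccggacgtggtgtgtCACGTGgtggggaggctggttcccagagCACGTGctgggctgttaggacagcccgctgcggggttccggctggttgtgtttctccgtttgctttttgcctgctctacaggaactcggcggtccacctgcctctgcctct

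Promoters of 6 of the 7 genes were in the sequence table, and the 3 others than those printed are Psph, Shmt2 and Mthfd2. The Phgdh window held 1 CCAAT box, at -204 from the table's start, from which all positions are counted. Psat1 held CCAAT boxes at -155 and -125 and a GC box at -65. Shmt1 held E-boxes at -89 and -61, a CCAAT box at -194 and 4 GC boxes. A CCAAT box was in 4 of the 6 promoters, against 37.5% of all 33469 promoters of the same length. A GC box was in 3 of the 6, against 33.1%, and an E-box in 1 of the 6, against 6.42%. The core of the amino acid response element to which ATF4 binds in mammals, searched on both strands as TGATGNAA, was in 0 of the 6 and in 3.98% of all promoters. At so low a share, 0 of 6 does not set these promoters apart, and near matches were not searched. These are matches of letters only, and no matches of different motifs overlapped in the sequences shown.

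Luminal keratin Krt8 ran from 1409 to 5260 over the 10 arrays and the adipocyte lipid carrier Fabp4 from 10206 to 16003, so the RNA labelled as epithelial also held abundant fat cell transcripts. The beta-actin 3'/5' ratio, higher where transcripts are shorter, was 7.77 on SPI 4 and 2.83 to 5.22 on the other arrays. The median signal of an array was between 222.8 and 256.7. In such bulk tissue, fewer cells of a type and less RNA per cell cannot be told apart.

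Among the enzymes of serine synthesis, Phgdh was the most variable, with a 7.89-fold range over the 10 arrays. Its signals were 355.1 on SPI 2, 164.7 on SPI 3, 123.3 on SPI 4 and 217.3 on SPI 5. On GEN they were 291.6, 336.7 and 291.8 in replicates 1, 3 and 5, and on CAS 195.4, 141.5 and 45 in replicates 1, 2 and 3. The 3 GEN arrays lay close together and above all CAS arrays, the SPI arrays spread across both, and CAS 3 was the lowest array by 1.45 log2 units. The standard deviation of its log2 signal over all arrays exceeded that of 99.3% of the 9520 probe sets tested. Means were 215 ± 101 (SD, n = 4) on SPI, 307 ± 26.0 (SD, n = 3) on GEN and 127 ± 76.2 (SD, n = 3) on CAS.

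The log2 difference of Phgdh was 0.89 ± 0.45 (SE) for SPI against CAS and 1.51 ± 0.48 (SE) for GEN against CAS, a 2.84-fold difference. For SPI against GEN it was -0.62 ± 0.45 (SE). The size rested partly on CAS 3. Without that array the SPI minus CAS difference was 0.26 and the GEN minus CAS difference 0.88, while without CAS 1 they were 1.32 and 1.94. The SPI minus GEN difference was -0.39 without SPI 4 and -0.90 without SPI 2.

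**Figure D1:**
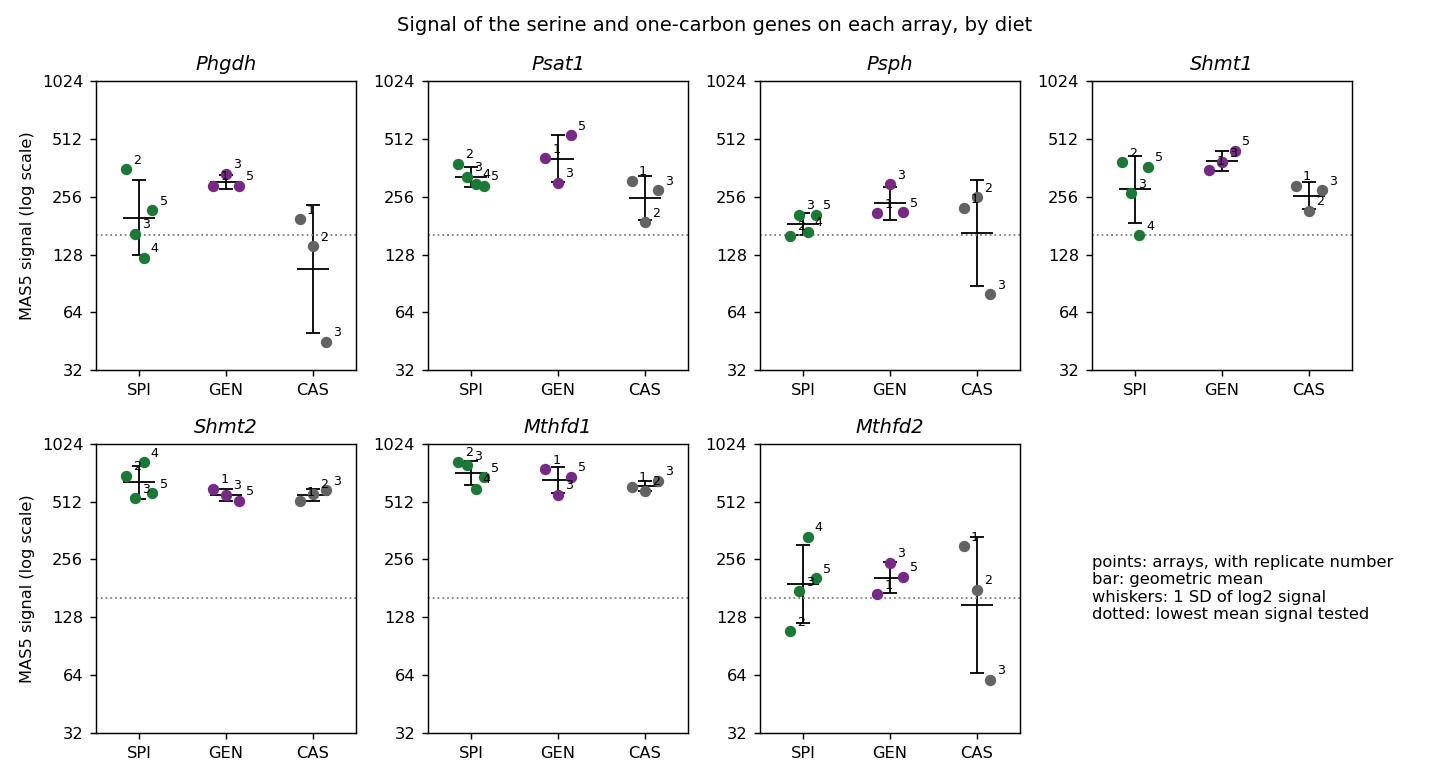
MAS5 signal (log axis) of the 7 genes on each array, by diet, with replicate numbers; bars are geometric means and whiskers 1 SD of log2 signal. For Phgdh the 3 GEN arrays sit between 291.6 and 336.7, above the CAS arrays at 45 to 195.4. The dotted line is the lowest mean signal tested, 162.

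Psat1, the aminotransferase of the second step, had signals of 380.8, 326.1, 299.7 and 292.5 on SPI 2, 3, 4 and 5. GEN arrays gave 406.4, 303 and 536.1 in replicates 1, 3 and 5, and CAS arrays 310, 188.2 and 277.4 in replicates 1, 2 and 3. GEN 5 was the highest and CAS 2 the lowest, and GEN 3 lay below CAS 1, so both soy-component diets overlapped CAS. The log2 difference was 0.35 ± 0.22 (SE) for SPI against CAS and 0.68 ± 0.24 for GEN against CAS. SPI arrays differed from GEN arrays by -0.32 ± 0.22. The SPI minus CAS value was 0.14 without CAS 2 and 0.50 without CAS 1. The SPI minus GEN value was -0.12 without GEN 5 and -0.53 without GEN 3.

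Psph, the phosphatase that releases serine, had 160.5, 206.3, 168 and 206.4 on SPI 2, 3, 4 and 5. It had 209.9, 298.1 and 213.3 on GEN 1, 3 and 5, and 223.7, 254.4 and 79.4 on CAS 1, 2 and 3. CAS 3 was again the lowest array, by 1.02 log2 units, while CAS 1 and CAS 2 were above 2 of the 3 GEN arrays. The log2 difference was 0.16 ± 0.34 (SE) for SPI against CAS and 0.52 ± 0.37 for GEN against CAS. Without CAS 3 these were -0.37 and -0.01, so neither direction was kept, and without CAS 2 they were 0.47 and 0.83. All SPI arrays lay below all GEN arrays, with a difference of -0.37 ± 0.34 (SE) that was -0.20 without GEN 3.

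Shmt1, the cytosolic hydroxymethyltransferase, had 388.3, 266.6, 161.9 and 367.2 on SPI 2, 3, 4 and 5. GEN arrays gave 352.9, 385.8 and 444.6 in replicates 1, 3 and 5, against 291.6, 216.7 and 276.4 on CAS 1, 2 and 3. All GEN arrays lay above all CAS arrays, and SPI ranged from below both to the level of GEN. The log2 difference was 0.11 ± 0.27 (SE) for SPI against CAS and 0.60 ± 0.29 for GEN against CAS. SPI arrays differed from GEN arrays by -0.49 ± 0.27. Leaving out any 1 array kept GEN minus CAS between 0.47 and 0.68. SPI 4, the array with the highest actin ratio, was the lowest for Shmt1, and without it SPI minus CAS was 0.37 and SPI minus GEN was -0.22. Without SPI 2 the SPI minus CAS difference was -0.05.

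Shmt2, the mitochondrial enzyme of the same reaction, varied little, with a 1.60-fold range from 512.8 to 818.6. Its signals were 697.3, 532.7, 818.6 and 564.9 on SPI 2, 3, 4 and 5. They were 598.1, 555.8 and 518.1 on GEN 1, 3 and 5, and 512.8, 562.2 and 586.8 on CAS 1, 2 and 3. GEN and CAS covered nearly the same range, and SPI 4 and SPI 2 were above all other arrays. The log2 difference was 0.22 ± 0.16 (SE) for SPI against CAS and 0.01 ± 0.18 for GEN against CAS, with a 95% interval of -0.37 to 0.39. For SPI against GEN it was 0.21 ± 0.16, and without SPI 4 it was 0.09, with 0.10 for SPI against CAS.

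Mthfd1, the cytosolic folate enzyme with 3 activities, had 825.3, 791.3, 598 and 685.4 on SPI 2, 3, 4 and 5. It had 755.8, 555.7 and 690.5 on GEN 1, 3 and 5, and 611.7, 581.9 and 657.2 on CAS 1, 2 and 3. This was the narrowest range of the 7 genes, 1.49-fold, and all diets overlapped. The log2 difference was 0.22 ± 0.16 (SE) for SPI against CAS and 0.10 ± 0.17 for GEN against CAS. SPI arrays differed from GEN arrays by 0.12 ± 0.16. Without GEN 3, the lowest array, the GEN minus CAS difference was 0.23 and the SPI minus GEN difference -0.01, and without GEN 1 the GEN minus CAS difference was 0.01.

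Mthfd2, the mitochondrial enzyme that acts beside Shmt2, had a 5.55-fold range. Its signals were 108.2, 174.6, 336.4 and 203.9 on SPI 2, 3, 4 and 5. They were 169.2, 246.1 and 207.9 on GEN 1, 3 and 5, and 299.6, 177.9 and 60.6 on CAS 1, 2 and 3. CAS 3 was the lowest array, by 0.84 log2 units, CAS 1 was above all GEN arrays, and every diet overlapped the others. The log2 difference was 0.36 ± 0.47 (SE) for SPI against CAS and 0.47 ± 0.51 for GEN against CAS. Without CAS 3 these were -0.28 and -0.17, so the direction turned in both, and without CAS 1 they were 0.87 and 0.98. Without SPI 4 the SPI minus CAS difference was 0.08. SPI arrays differed from GEN arrays by -0.11 ± 0.47, and by 0.16 without SPI 2, 0.02 without GEN 3 and -0.39 without SPI 4.

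**Figure D2:**
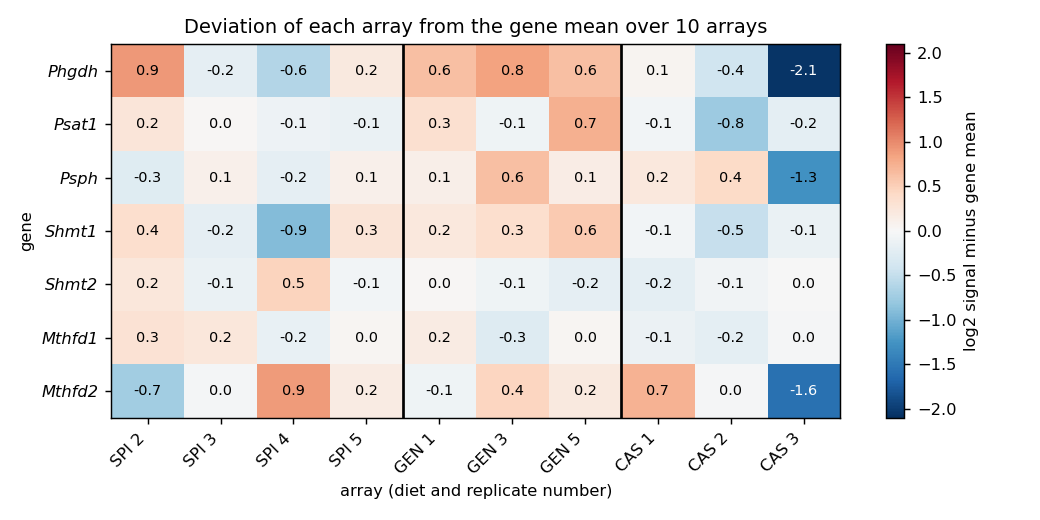
Log2 signal of each gene on each array minus its mean over the 10 arrays, with arrays ordered by diet and replicate. CAS 3 has the lowest value for Phgdh, Psph and Mthfd2, and Shmt2 and Mthfd1 vary little over the arrays.

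The CAS 3 array was thus the lowest for 3 of the 7 genes, Phgdh, Psph and Mthfd2, which were also the dimmest of the 7, with geometric mean signals of 188, 192 and 180. Over the 9520 probe sets tested, CAS 3 was the lowest array for 10.9%, and the lowest by at least 1 log2 unit for 0.315%. Among the 873 probe sets with a mean log2 signal between 7.4 and 7.7, a band chosen after the values were seen to hold these 3 genes, the shares were 7.33% and 0.687%. For SPI 4, the array most often the lowest, the shares were 17.0% and 0.452% over all probe sets tested. In the band they were 20.5% and 1.15% for SPI 4. Of the 70 signals of the 7 genes, 8 lay below 162, the lowest geometric mean of a tested probe set. These were Phgdh on SPI 4, CAS 2 and CAS 3, Psph and Mthfd2 each on SPI 2 and CAS 3, and Shmt1 on SPI 4. The table gives no calls of presence, so how much of such a signal is background was not tested.

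All 7 genes passed the filter on dim probe sets, and 0 of 7 passed an adjusted p under 0.05 in limma in any comparison, where 0% of the 9520 probe sets were called in each. For SPI against CAS, 7 of 7 genes had positive differences, with a median of 0.22 against -0.01 over all probe sets tested. Leaving out CAS 3 changed that count to 5 of 7. At an unadjusted p under 0.05 in limma, 0 of 7 passed for SPI against CAS, with 4.82% of all probe sets passing. The CAS arrays also entered the choice of the 7 genes, so the counts for this comparison are a description and not a test. No gene had all SPI arrays above all CAS arrays, which held for 1.78% of probe sets.

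For GEN against CAS, 7 of 7 differences were positive, with a median of 0.52 against -0.01 over all probe sets tested, and 5 of 7 without CAS 3. The 7 genes were chosen because Phgdh and Psat1 had higher signals on GEN than on CAS. Their unadjusted p-values therefore could not test this comparison, and a count of them is not given. Over all probe sets, 5.89% had a limma p below 0.05 before adjustment. For the same reason, the counts of direction and overlap of the 7 for GEN against CAS are a description only. Phgdh and Shmt1 were the 2 genes with all GEN arrays above all CAS arrays, where 5.70% of probe sets were. For SPI against GEN, 5 of 7 differences were negative, with a median of -0.32 against -0.00 over all probe sets. At an unadjusted p under 0.05 in limma, 0 of 7 passed and 7.95% of all probe sets did. The GEN arrays also entered the choice of the 7 genes, so the counts for SPI against GEN are likewise a description only. Psph was the 1 gene with all SPI arrays below all GEN arrays, where 4.37% of probe sets were. The comparisons with CAS share the CAS arrays, so a low CAS array enters both in the same direction.

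**Figure D3:**
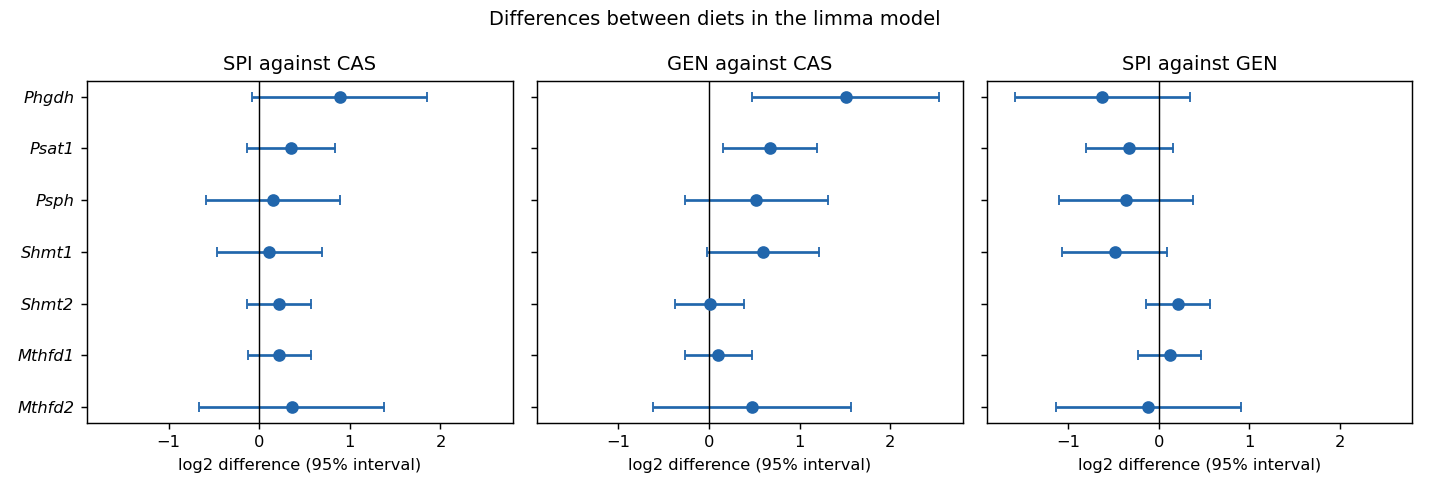
Log2 differences of the 7 genes in the limma model with unadjusted 95% intervals, for each pair of diets. Phgdh has the highest value for SPI against CAS (0.89) and for GEN against CAS (1.51), and the intervals of Shmt2 and Mthfd1 are the narrowest.

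**Figure D4:**
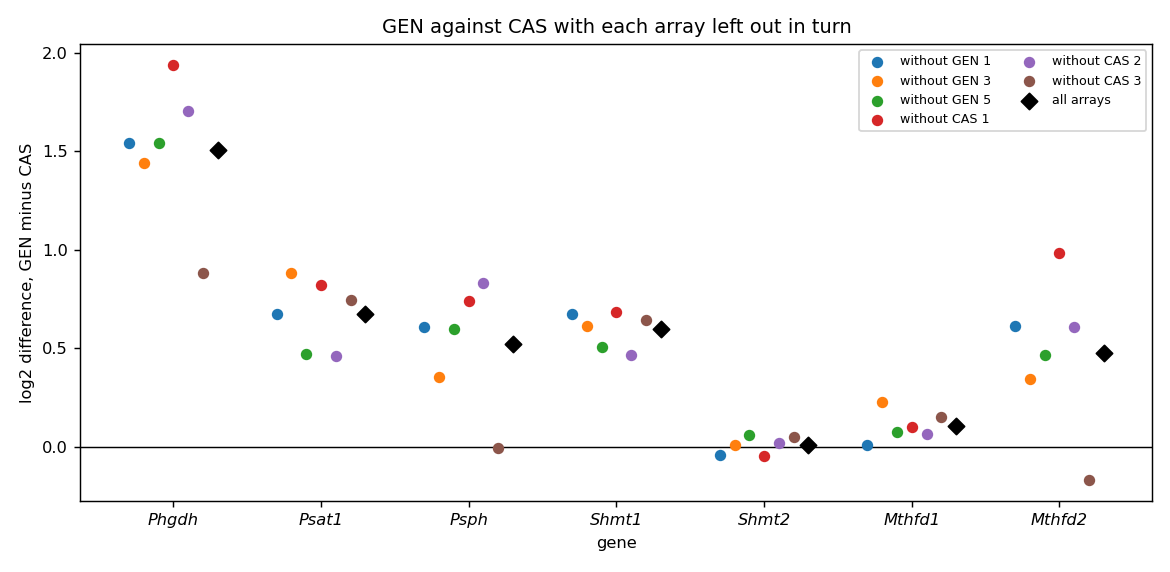
Log2 difference of GEN minus CAS for each gene with all arrays (diamonds) and with each GEN or CAS array left out in turn (circles). Without CAS 3, Phgdh stands at 0.88, Psph at -0.01 and Mthfd2 at -0.17, while Psat1 (0.74) and Shmt1 (0.64) stay near their values with all arrays.

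Markers of other cells and states also differed in level between the diets, though none passed the adjusted threshold. Of 11 milk and secretory genes listed, 9 were tested, and their summed signal was 33058 to 71798 on SPI, 83436 to 111941 on GEN and 36886 to 82894 on CAS. The mean log2 signal of the same 9 genes overlapped between GEN (12.66 to 13.22) and CAS (11.49 to 12.70), and was 11.35 to 12.35 on SPI. Of 14 luminal genes, 12 were tested, with sums of 10213 to 21598 on SPI, 22702 to 31009 on GEN and 15762 to 26608 on CAS. Of 17 proliferation genes, 14 were tested, with sums of 13625 to 16279 on SPI, 14379 to 16326 on GEN and 11667 to 12565 on CAS. These sums rest largely on Pcna and Stmn1, and the mean log2 signal of the same 14 genes overlapped, at 9.08 to 9.39 on SPI, 9.01 to 9.34 on GEN and 8.84 to 9.18 on CAS. The lowest signal of any tested luminal or milk marker was 200, for Cldn7. Counted by gene, luminal markers were below CAS for 12 of 12 on SPI and above CAS for 10 of 12 on GEN. Milk markers were above CAS for 4 of 9 genes on SPI and 8 of 9 on GEN. Proliferation markers were above CAS for 14 of 14 genes on SPI and 11 of 14 on GEN. Fibroblast markers were below CAS for 9 of 10 genes on SPI and for 9 of 10 on GEN, and macrophage markers for 8 of 8 on SPI and 6 of 8 on GEN. Skeletal muscle markers were below CAS for 5 of 5 genes on both diets, with a mean log2 signal of 9.95 on CAS 1 and 7.39 to 8.27 on the other arrays. Basal markers were above CAS for 5 of 7 genes on SPI and 6 of 7 on GEN, adipocyte markers for 3 of 5 on both, and lymphocyte markers for 1 of 3 on SPI and 2 of 3 on GEN. The part of these transcripts in the differences of the 7 genes was not tested.

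Whether Phgdh moved with other measures inside a diet was examined on deviations from diet means, which do not use the differences between diets. Of 16 relations computed, with the other 6 genes, 9 marker lists and the actin ratio, none passed the adjusted threshold in the exact permutation test over the 864 orders within diets (adjusted p of 0.935 to 0.958 for Pearson and 0.966 to 0.973 for Spearman, n = 10 arrays). The highest value was with Psph, at r = 0.70 (exact two-sided p = 0.20, adjusted 0.935) and rho = 0.54 (exact p = 0.263, adjusted 0.966). Without CAS 2 and CAS 3, the arrays farthest from the median, r with Psph was -0.05, and the relation therefore depended on these arrays. The only CAS array then left equals its own diet mean, so this r rests on SPI and GEN arrays alone. The same holds below for the r left with Mthfd2 and with the skeletal muscle mean. With Shmt1 r was 0.44 (exact p = 0.242) and rho 0.42 (exact p = 0.278), and r was 0.02 without SPI 2 and SPI 4. With Psat1, the next enzyme of the pathway, r was 0.05 (exact p = 0.950) and rho 0.03 (exact p = 0.973), and r was 0.53 without CAS 2 and GEN 3. With Mthfd2 r was 0.36 (exact p = 0.584) and rho 0.39 (exact p = 0.440), and r was -0.82 without CAS 1 and CAS 3. With the luminal marker mean r was 0.47 (exact p = 0.272) and rho 0.36 (exact p = 0.403), and r was 0.08 without SPI 2 and SPI 4. With the milk marker mean r was 0.36 (exact p = 0.503) and rho 0.36 (exact p = 0.464), and r was 0.63 without CAS 2 and SPI 4. With the skeletal muscle mean r was 0.50 (exact p = 0.509) and rho 0.25 (exact p = 0.656), and r was 0.11 without CAS 2 and CAS 1. The other 9 relations had r between -0.27 and 0.40.

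None of the other 6 was among the 8 genes most like Phgdh across the 10 arrays by Pearson's r. By Pearson's r on log2 signal, as a description over arrays that share their diets, the first of 7118 genes was Hbs1l, a GTPase-related factor of ribosome rescue, at 0.95. It was followed by the potassium channel subunit gene Kcnab1 (0.90), the hydroxylase gene Kdm8 (0.88), the translation elongation factor gene Eef1a2 (0.88) and the proton pump subunit gene Atp6v0e1 (0.88). Rbm27, which codes for an RNA-binding protein, the respiratory chain gene Ndufb8 and the methyltransferase gene Inmt each stood at 0.85. Of the 7 genes, Psph ranked 69 (r = 0.74), Shmt1 ranked 243 (0.62), Psat1 ranked 542 (0.51) and Mthfd2 ranked 771 (0.44). Mthfd1 stood at 0.24 and Shmt2 at -0.12, where the median over all genes was -0.06. By rank correlation Shmt1 stood at 0.88 and Psph at 0.31. Of the genes first by Pearson's r, only Eef1a2 (0.95) and Hbs1l (0.93) were above Shmt1 by rank correlation. The others lay between 0.67 (Ndufb8) and 0.82 (Inmt), so the order depended on the measure.

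Among 78 tested genes of 8 related groups, 0 passed in limma for SPI against CAS (smallest adjusted p = 0.924), GEN against CAS (0.825) or SPI against GEN (0.558). At an unadjusted p under 0.05 there were 4, 1 and 7 genes, which is 5.13%, 1.28% and 8.97% of the 78, where 4.82%, 5.89% and 7.95% of all probe sets passed. Their median difference was 0.04 for SPI minus CAS, -0.01 for GEN minus CAS and 0.04 for SPI minus GEN. The group of Atf4, the transcription factor of the amino acid response, and its targets had 11 of 19 members above 0 for GEN against CAS, with a median of 0.04 against -0.02 over all 7119 genes. In that group Asns, the asparagine synthetase, had 283 ± 78.8 (SD, n = 4) on SPI, 386 ± 133 (SD, n = 3) on GEN and 282 ± 67.8 (SD, n = 3) on CAS, and Ddit3, a stress transcription factor, differed by 0.35 for GEN against CAS. Neither passed. Aminoacyl tRNA synthetases had 2 of 13 members above 0 for GEN against CAS (median -0.13) and 10 of 13 for SPI against CAS (median 0.09). Of these, Iars1 differed by -0.62 and Tars1 by -0.37 for GEN against CAS.

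Transport and use of serine gave differences on both sides of 0. Of 7 transport genes, 3 were above 0 for GEN against CAS and 4 below. Sfxn1, the mitochondrial serine carrier, had 349 ± 22.3 (SD, n = 4) on SPI, 345 ± 34.9 (SD, n = 3) on GEN and 458 ± 56.5 (SD, n = 3) on CAS. Its differences were -0.39 ± 0.15 (SE) for SPI against CAS and -0.41 ± 0.16 (SE) for GEN against CAS. Neither passed (adjusted p = 0.987 and 0.825 in limma). The glycine transporter Slc6a9 differed by -0.26 for GEN against CAS. Of 7 genes of serine use and glycine cleavage, 4 were above 0, with Gcsh of the glycine cleavage system at -0.42 and Gatm of creatine synthesis at 0.35. None of these passed.

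Of the folate group only 4 of 16 genes were tested, and these were folate receptors and enzymes that add or remove glutamates, rather than enzymes of the cycle itself: Folr1, Folr2, Fpgs and Ggh. For GEN against CAS, 2 of 4 were above 0, with Folr2, a folate receptor of macrophages, at -0.58 and Fpgs, which adds glutamates to folate, at 0.14. Fpgs differed by 0.54 for SPI against CAS (adjusted p = 0.924 in limma). The methionine cycle had 4 of 8 genes above 0 for GEN against CAS, with Ahcy, which cleaves S-adenosylhomocysteine, at 0.31 and the transsulfuration enzyme Cbs at 0.29. Purine synthesis had 2 of 7 above 0, with Ppat, its first committed enzyme, at 0.44 and Adsl at -0.19. Glycolysis, whose upper part supplies the substrate of Phgdh, had 10 of 13 above 0 (median 0.13), with Tpi1 and Ldha at 0.29 and 0.30. The list also holds enzymes that act after that substrate, Ldha among them. For SPI against CAS the median of that group was 0.16, with 8 of 13 above 0.

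**Figure D5:**
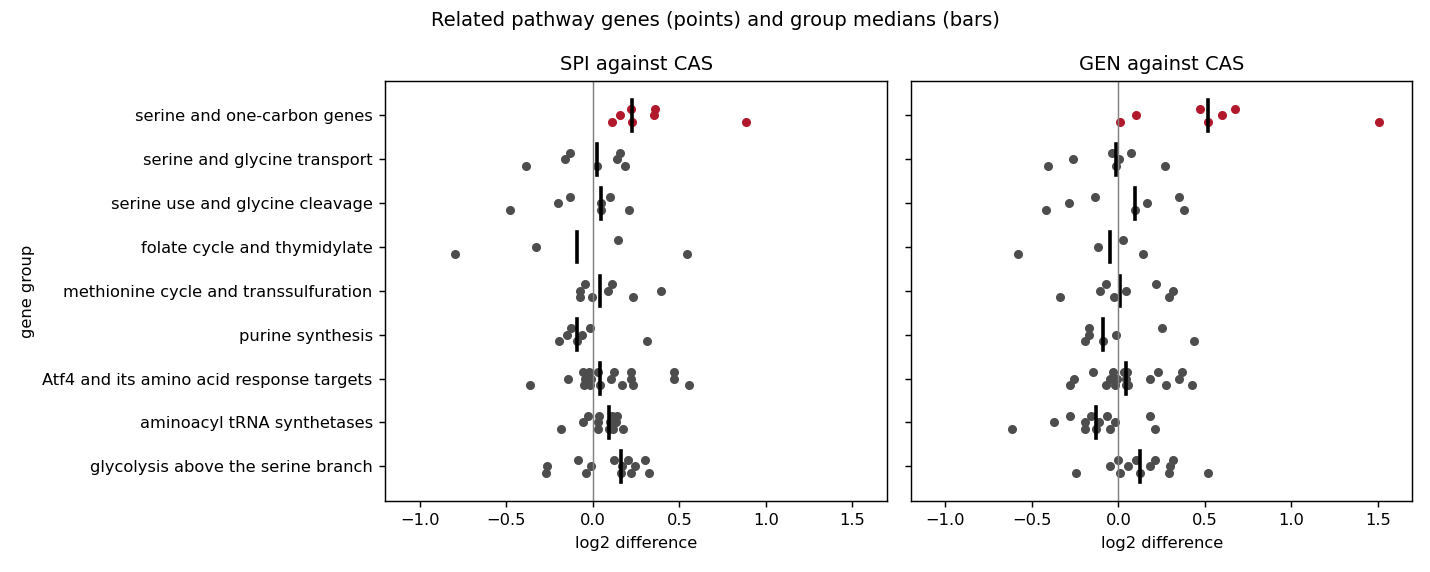
Log2 differences of the 7 serine and one-carbon genes (red) and of the genes of 8 related groups (grey), each point a gene and each bar a group median, for SPI against CAS and GEN against CAS. The group labelled as glycolysis above the serine branch also holds enzymes below it. The medians of the related groups lie between -0.13 and 0.16, and that of the 7 genes, which were chosen with their values known, at 0.22 and 0.52.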

How the data were processed

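Each probe set has 1 linear intensity per array in the deposited table; MAS5 is the tool that the submitters' processing notes name, and the sources used here give no version. The trimmed mean of each array (2% left out at each end) was about 500 (500.12 to 500.14), so differences in total RNA between arrays are not visible. No column belonged to another series. After leaving out 57 control probe sets of 15923, values under 1 were set to 1, log2 was taken, and the lowest 40% of probe sets by mean were left out, which left 9520. Symbols came from the platform annotation through Entrez identifiers (12783 probe sets with 1 symbol, 312 with several).

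All 10 arrays entered 1 fit across all probe sets with limma 3.58.1 in R 4.3.3 (intensity trend, 7 residual degrees of freedom), with Benjamini-Hochberg adjustment over 9520 probe sets. Errors are standard errors of the fit. The number of arrays limits the precision. Related genes were represented by the brightest probe set. The model and the exact permutation test were tested on simulated data.

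The members and lists were chosen with earlier results of these data known. Named genes were the 7 members, the 2 genes of each related list with the smallest p for GEN against CAS, and the 8 genes most correlated with Phgdh; Folr1, Ggh and Atf4 were named to describe their lists, and Krt8, Cldn7, Pcna, Stmn1 and Fabp4 to describe the tissue. Same-numbered arrays of different diets did not deviate together (median correlation of deviations -0.09 over 6 pairs), so the replicate numbers were not used as pairs.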

Additional observations from a re-analysis of the deposited data

How the results depend on the processing

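The difference of Phgdh kept its direction in all 3 comparisons under quantile normalization, median centring, log2(signal + 16) and the replicate block, and with each array left out. No filter, no intensity trend, a plain linear model and a fit of the 2 diets compared leave a difference of diet means unchanged by construction. Those settings change only the errors and p, and could not test its direction. Leaving out the lowest 60% of probe sets removed Phgdh and 4 other members, and no second Phgdh probe set was available. With 1 array left out, Phgdh ranged from 0.26 to 1.32 for SPI against CAS, 0.88 to 1.94 for GEN against CAS and -0.90 to -0.39 for SPI against GEN. With the replicate block the values were 1.31, 1.74 and -0.43, and 0 probe sets were called. At an unadjusted p under 0.05 in limma there were 270 against 459 without the block for SPI against CAS. For SPI against GEN there were 286 against 757. The block leaves fewer residual degrees of freedom, and SPI 4, the only array with its replicate number, then has no part in the differences. These shifts therefore cannot be read as an effect of the replicate number. Of 270 alternative values of the other 6 genes, 12 changed sign, all with 1 array left out. Those 270 include values from settings that cannot change a difference, so the share that changed sign is not a measure of stability.

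Over all probe sets, 2 were called for GEN against CAS with the lowest 60% left out, and 2 for SPI against GEN in the fit of those diets alone. With 1 array left out, 0 to 2 were called for SPI against CAS (2 without SPI 2), 0 to 1 for GEN against CAS (1 without CAS 1) and 0 to 1 for SPI against GEN (1 without SPI 2 and 1 without GEN 5). Unadjusted counts then ran from 298 (without SPI 3) to 726 (without CAS 2) for SPI against CAS, 353 (without GEN 5) to 755 (without CAS 1) for GEN against CAS and 490 (without GEN 5) to 1093 (without SPI 5) for SPI against GEN. No related gene was called when every probe set was counted. The low signals of Phgdh, Psph and Mthfd2 limit what their differences show.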
